A study of Rattus norvegicus with 6 samples.

Results

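The 7 calcium-binding proteins that mark hippocampal cell types, Calb1, Calb2, Pvalb, Hpca, Hpcal1, Vsnl1 and S100b, were followed across whole-hippocampus RNA of 2 rat lines. They were taken as every probe set whose platform annotation names exactly 1 gene and that gene is one of the 7. All 7 genes were found, with 8 probe sets of the 8799 on the array, because S100b has 2 and each of the others has 1. The gene list was drawn up without a threshold on the measured values.

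The Syracuse High Avoidance (SHA) and Syracuse Low Avoidance (SLA) rats are lines bred from Long-Evans stock for good or poor two-way active avoidance, a task in which a rat crosses a box to escape a signalled shock. Each line was measured as 3 pools of 3 rats, each pool on 1 array, so n = 3 per line. All rats had been tested in the task and were killed 2 weeks later, with no untested rats in either line, so effects of the testing and differences that the lines had before it cannot be told apart. The labels used here give no age or sex, and they do not say whether pools of the same number were processed together. They also do not say whether any rat entered more than 1 pool, so the p values measure the spread between these 6 pools.

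The 7 proteins bind calcium through EF-hands, a helix-loop-helix fold. Calbindin, calretinin and parvalbumin are mobile buffers that shape how long and how far a calcium signal lasts, and each is a classical marker of neuron types. In the hippocampus, calbindin (Calb1) fills the granule cells of the dentate gyrus and part of the pyramidal cells of CA1, calretinin (Calb2) marks a class of interneurons that mostly contact other interneurons, and parvalbumin (Pvalb) marks fast-spiking basket and axo-axonic cells. Hippocalcin (Hpca), hippocalcin-like 1 (Hpcal1) and visinin-like 1 (Vsnl1) belong to the neuronal calcium sensors, whose fatty-acid tail moves the protein to membranes when calcium rises. S100b is made chiefly by astrocytes, and in part by oligodendrocyte lineage cells, so it is a glial and not a neuronal marker. In pooled tissue RNA, fewer cells of a type and less RNA per cell cannot be told apart.

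No member differed between SHA and SLA beyond the spread of the pools. In limma's test 0 of the 8 probe sets had an adjusted p under 0.05 (adjusted p = 1.00 for each), against 0% of the 6555 probe sets tested. None had an unadjusted p under 0.05, against 1.5% of all tested, and the smallest was 0.11 for Calb1. For none did the 3 SHA pools lie wholly apart from the 3 SLA pools, against 5.66% of all tested. The median difference (log2 SHA minus SLA) over the 8 probe sets was 0.22, with 7 above 0 and 1 below. Over all tested the median was -0.01, with 48.1% above 0. All 8 were above the intensity floor of 8.9 in all 6 pools, and all passed the filter on dim probe sets.

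**Figure D1:**
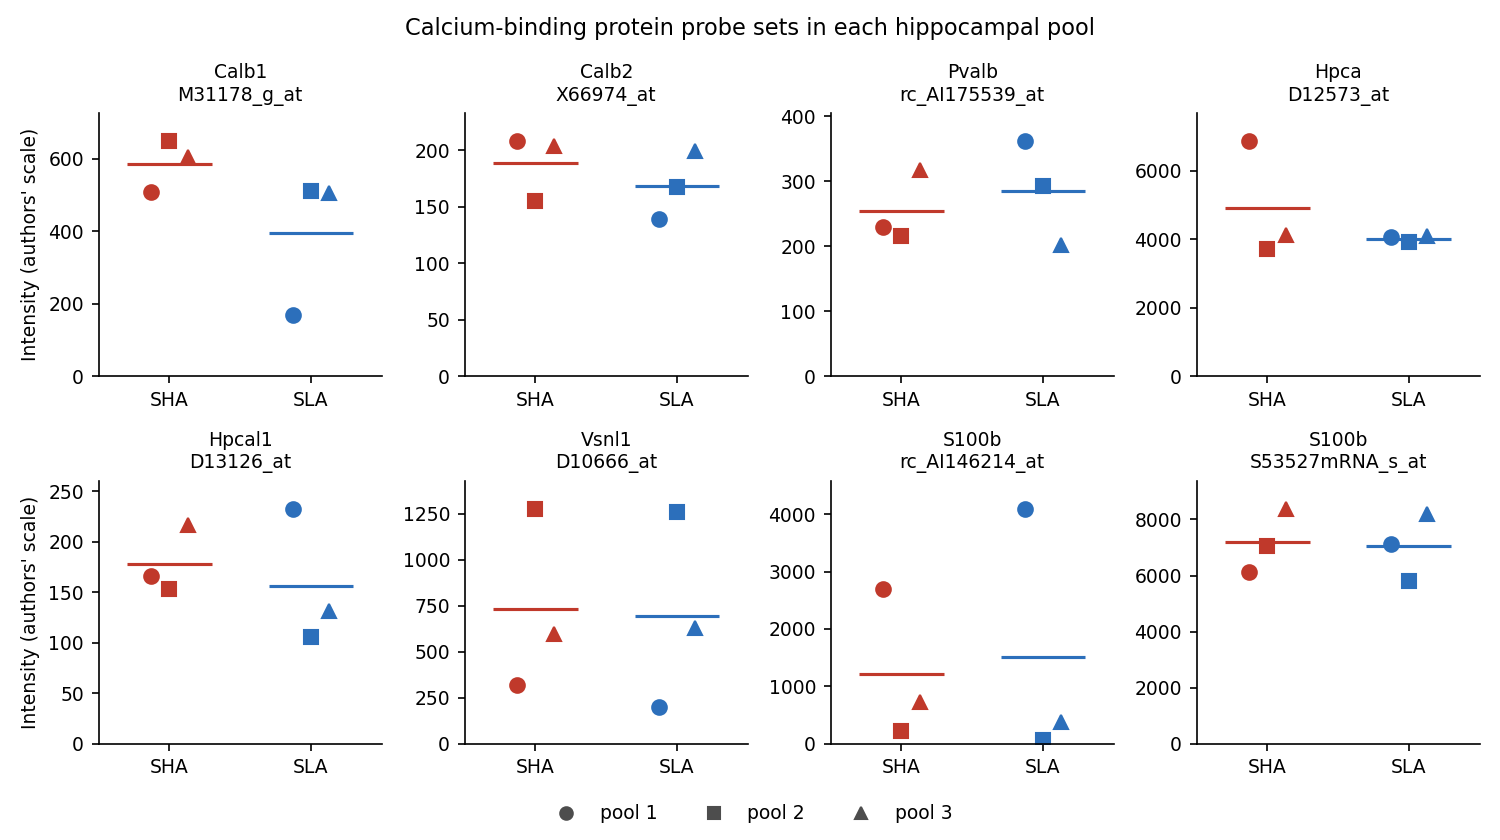
Intensity on the authors' scale (y axis, from 0) of the 8 probe sets in the SHA and SLA pools (x axis), with a marker shape for each pool number and a horizontal bar at the mean of 3 pools. The SHA and SLA pools overlap in each panel, and Vsnl1 and S100b on rc_AI146214_at are spread by pool number, with pools numbered 1 and 2 at opposite ends in both lines.

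Among the buffers, calbindin had the largest mean difference. Calb1 (M31178_g_at) read 507.9, 648.5 and 604.4 in SHA pools 1, 2 and 3, against 169.7, 512.4 and 506.9 in SLA pools 1, 2 and 3. The low value of SLA pool 1 stood apart, while SLA pools 2 and 3 lay just above the lowest SHA pool or just below it. As a whole array, SLA pool 1 correlated with the other pools at 0.78 to 0.89, against 0.85 to 0.96 among those. The part of this in its Calb1 value was not tested. The means were 587 ± 71.9 in SHA and 396 ± 196 in SLA (SD, n = 3 each). The difference was 0.73 ± 0.41 (log2 ± SE), or 1.65-fold with a 95% interval of 0.87- to 3.15-fold. Within pool numbers 1, 2 and 3, SHA minus SLA was 1.58, 0.34 and 0.25, so Calb1 was higher in SHA in each pair. It was 1 of the 8 member probe sets with 1 sign in all 3 pairs, a pattern shared by 28% of all probe sets tested. Without SLA pool 1 the difference was 0.20 ± 0.24, and leaving out both pools numbered 1 gave 0.30 ± 0.22. When the pool number entered as a block, the 95% interval was 0.10 to 1.35, with an unadjusted p of 0.028 (limma) and an adjusted p of 0.83. Under that block 5.26% of all tested had an unadjusted p under 0.05, and 0% passed after adjustment.

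Calretinin varied within a narrow range. Calb2 (X66974_at) read 208, 154.9 and 203.9 in SHA pools 1 to 3, against 139.5, 167.1 and 199.5 in SLA pools 1 to 3. The ranges overlapped over most of their width. The difference was 0.17 ± 0.32, with a 95% interval of 0.69- to 1.83-fold. Differences of 0.58, -0.11 and 0.03 within pool numbers 1, 2 and 3 had mixed signs.

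Parvalbumin had the only log2 difference below 0 among the 8 probe sets. Pvalb (rc_AI175539_at) read 228.8, 215.8 and 316.7 in SHA pools 1 to 3, against 361.5, 292 and 201.4 in SLA pools 1 to 3. The highest value and the lowest value both came from SLA, so the SHA pools lay inside the SLA range. The difference was -0.15 ± 0.32 (95% interval 0.55- to 1.48-fold), with -0.66, -0.44 and 0.65 within pool numbers 1, 2 and 3. At these 3 pools per line, the buffers thus left room for changes in either direction. SHA over SLA ran from 0.87- to 3.15-fold for Calb1, 0.69- to 1.83-fold for Calb2 and 0.55- to 1.48-fold for Pvalb.

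Among the sensors, hippocalcin was even across 5 of the 6 pools. Hpca (D12573_at) read 6855, 3721.1 and 4123.9 in SHA pools 1 to 3, against 4048.8, 3904.8 and 4091.5 in SLA pools 1 to 3. The 3 SLA pools differed by no more than 1.05-fold, and SHA pools 2 and 3 lay close to them, while SHA pool 1 was 1.84 times SHA pool 2. The difference was 0.23 ± 0.29 (95% interval 0.75- to 1.85-fold). It was 0.76 within pool number 1, but -0.07 and 0.01 within numbers 2 and 3, and -0.035 without SHA pool 1.

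Hippocalcin-like 1, a close relative of hippocalcin, varied among the SLA pools. Hpcal1 (D13126_at) read 166, 152.8 and 216.2 in SHA pools 1 to 3, against 232.7, 105.6 and 131.1 in SLA pools 1 to 3. SLA held both the highest pool and the lowest pool. The difference was 0.26 ± 0.38 (95% interval 0.66- to 2.17-fold), with -0.49, 0.53 and 0.72 within the numbers. Without SLA pool 1 it was 0.58, and without SLA pool 2 it was 0.01.

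Visinin-like 1 differed by pool number, in the same order in both lines. Vsnl1 (D10666_at) read 316.8, 1278.5 and 595.5 in SHA pools 1 to 3, against 197.2, 1258.8 and 629.3 in SLA pools 1 to 3. Pools numbered 2 were high and pools numbered 1 low in both lines. Pool 2 was 4.04 times pool 1 in SHA and 6.38 times in SLA, while SHA minus SLA within numbers 1, 2 and 3 was 0.68, 0.02 and -0.08. The line difference was 0.21 ± 0.67 (95% interval 0.41- to 3.27-fold), and with the pool number as a block the interval narrowed to -0.23 to 0.65 on the log2 scale.

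The 2 probe sets of S100b gave different pictures. S53527mRNA_s_at read 6134.7, 7059.6 and 8385.3 in SHA pools 1 to 3, against 7125.9, 5803.3 and 8186.3 in SLA pools 1 to 3. The highest pool was 1.44 times the lowest, the smallest such ratio of the 8 probe sets, and the line difference was 0.03 ± 0.28 (95% interval 0.66- to 1.59-fold). The other probe set, rc_AI146214_at, read 2697.1, 216.3 and 721.8 in SHA pools 1 to 3, against 4096.2, 63.9 and 370.2 in SLA pools 1 to 3. Pools numbered 1 were high and pools numbered 2 low in both lines, and the highest pool was 64.1 times the lowest. The means were 1212 ± 1311 in SHA and 1510 ± 2245 in SLA (SD, n = 3 each), lower in SHA, while the log2 difference was above 0, so its direction turned with the scale. The log2 difference was 0.71 ± 1.34, with a 95% interval of 0.20- to 13.1-fold. Its sign differed within the numbers, at -0.60, 1.76 and 0.96. Whether this probe set reads S100b transcript in all pools is uncertain and was not tested.

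**Figure D2:**
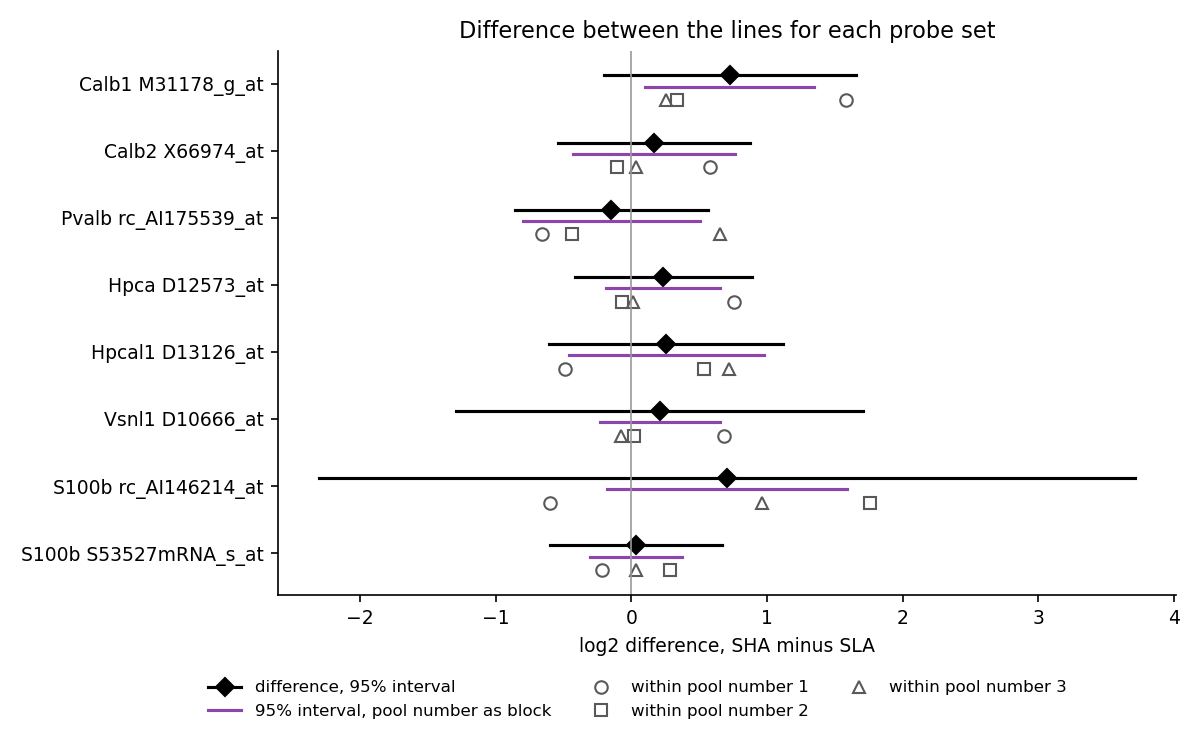
Log2 difference SHA minus SLA (x axis) for each probe set (rows). Diamonds and black bars give the difference and its 95% interval over 3 pools per line, purple bars the 95% interval with pool number as a block, and open markers the difference within each pool number. The black intervals all include 0, and with the block the interval of Calb1 alone, 0.10 to 1.35, does not.

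The dependence on pool number was tested across the table after these values were seen, with limma's F test of pool number in a model that also held the line. Of the 8 member probe sets 2 passed at an adjusted p under 0.05, against 7.6% of all probe sets tested. They were Vsnl1 (adjusted p = 0.0045) and S100b on rc_AI146214_at (adjusted p = 0.0041). With both pools numbered 2 left out, the adjusted p was 0.066 for Vsnl1 and 4.1e-04 for that S100b probe set, with 1.46% of all tested past the threshold. Calb1 had an unadjusted p of 0.033 and an adjusted p of 0.14 in the same test. S53527mRNA_s_at had an adjusted p of 0.30, and the adjusted p of the other members was between 0.32 and 0.87.

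Array controls moved with the same numbers. The geometric mean of 9 bacterial and phage control probe sets was 5458, 1121 and 2279 in SHA pools 1 to 3, and 12282, 640 and 1564 in SLA pools 1 to 3. That of 6 opposite-strand probe sets for Gapdh and beta-actin was 1352, 30.1 and 365 in SHA pools 1 to 3, and 1432, 21.3 and 219 in SLA pools 1 to 3. Across the 6 pools, which share those numbers, log2 values of S100b on rc_AI146214_at correlated with the opposite-strand controls at r = 0.96, and 1.72% of all tested reached that value. Vsnl1 correlated with them at r = -0.96, and 0.95% of all tested were as low or lower. Hpcal1 correlated at 0.73 and Hpca at 0.60, values that 17.5% and 25.9% of all tested reached. Calb1 correlated at -0.56, with 26.7% of all tested as low or lower. Pvalb, S100b on S53527mRNA_s_at and Calb2 correlated at 0.28, 0.23 and 0.21. With the bacterial and phage controls, r was 0.98 for S100b on rc_AI146214_at, -0.98 for Vsnl1, 0.80 for Hpcal1 and -0.75 for Calb1. The remaining members lay between -0.15 and 0.45. The part of the controls' variation in the member values was not tested.

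**Figure D3:**
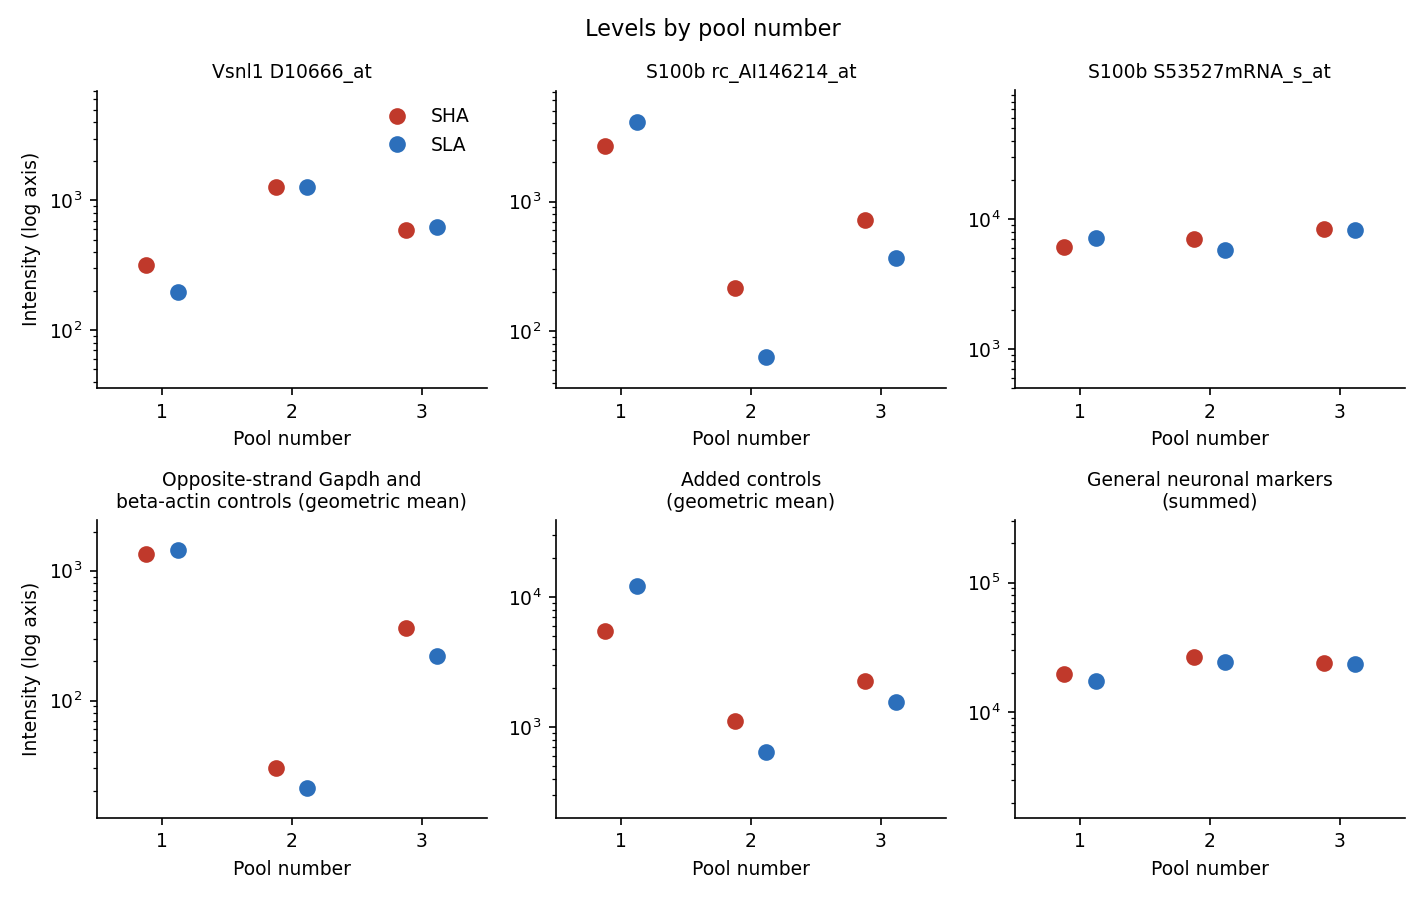
Intensity on log axes of equal span (y) by pool number (x) for Vsnl1, the 2 probe sets of S100b, 2 control summaries and the summed general neuronal markers, with SHA and SLA side by side. Vsnl1 is lowest in pools 1 (316.8 and 197.2), S100b on rc_AI146214_at and both control summaries are highest there, and S100b on S53527mRNA_s_at stays between 5803.3 and 8385.3.

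Markers of whole cell classes were summed over the intensities of each list, 1 probe set per gene, to set beside these patterns. The 14 general neuronal markers summed to 19581, 26764 and 23823 in SHA pools 1 to 3, against 17350, 24618 and 23483 in SLA pools 1 to 3, lowest in the pools numbered 1 of both lines as Vsnl1 was. The 16 astrocyte markers summed to 87110, 54723 and 63986 in SHA pools 1 to 3, against 96444, 49351 and 70654 in SLA pools 1 to 3, highest in pools numbered 1 and lowest in pools numbered 2. Of these, 6 neuronal and 3 astrocyte markers passed the test of pool number, against 7.6% of all probe sets tested. So did 3 of 15 granule and pyramidal, 3 of 22 interneuron and 1 of 12 oligodendrocyte and myelin markers. The 3 astrocyte genes were split. Apoe, at 32604.8 in SHA pool 1 and 40524.4 in SLA pool 1, was higher in pools 1 than in pools 2. Atp1b2 and Gja1 were lower in pools 1 than in pools 2 of both lines. The sums of the granule and pyramidal markers, Calb1 included, ran opposite to those of the general neuronal markers. Over 15 genes they were 26292, 21588 and 23972 in SHA pools 1 to 3, against 23920, 19976 and 22537 in SLA pools 1 to 3. They were highest in pools numbered 1, and SLA pool 1, where Calb1 was lowest, had the highest sum of the SLA pools. Camk2b and Nrgn, the brightest of the list, read 7837 and 7087.5 in SLA pool 1, above SLA pools 2 and 3. Single genes were split, and Lct, Camk2a, Grik4, Grin2a and Ptk2b were also highest in SLA pool 1 among the SLA pools. Neurod1, Gria1, Gria2, Pcp4, Ppp3ca and Itpka were lowest there, as Calb1 was, and Neurod2 lay between. The 12 oligodendrocyte and myelin markers also summed highest in pools numbered 1, at 24173 in SHA and 28742 in SLA. The 22 interneuron markers summed to between 6305 and 8207 in SHA and between 5567 and 7249 in SLA, with SLA pool 1 lowest. Sums are weighted by the brightest probe sets, and their part in the member values was not tested.

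Pvalb and Calb2 are also made in neurons of neighbouring regions such as cortex and thalamus. The 12 neighbouring-region markers other than these 2 genes summed to 1477, 983 and 1821 in SHA pools 1 to 3, against 2061, 1209 and 1644 in SLA pools 1 to 3. Of these 12, 2 were higher and 10 lower in SHA (median -0.19), with none at an unadjusted p under 0.05. Their medians within pool numbers 1, 2 and 3 were -0.47, -0.35 and 0.11, the same signs as those of Pvalb. The median over all genes tested also had these signs, at -0.10, -0.07 and 0.05, while Calb2 had 0.58, -0.11 and 0.03. The part of neighbouring regions in the Pvalb values was not tested. Drd2, Pmch and Prl of the same list were on the array but left out as dim. Of 17 granule and pyramidal cell markers on the array 15 passed the filter, as did 14 of 17 neighbouring-region markers, Calb2 and Pvalb included, so passing does not set hippocampus apart from its neighbours. Slc17a7, the vesicular glutamate transporter of these neurons, did not pass, and its probe set rc_AI144756_at read 66.6, 4 and 16.6 in SHA pools 1 to 3 and 50.2, 3.5 and 13.7 in SLA pools 1 to 3. Tdo2, a granule cell marker, was also dim.

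Other EF-hand proteins were split between the lines, with none past the threshold. Of 60 listed genes 21 were on the array and 17 passed the filter, while Ocm, Ppp3r2, S100a8 and S100a9 were dim. Of the 17, 9 were higher and 8 lower in SHA, with a median difference of 0.02, and none had an unadjusted p under 0.05. Over the 3812 genes tested 1746 were higher and 2066 lower, with a median of -0.03. The 4 genes with the smallest p were Nucb1, S100a4, Rcn3 and Calm2.

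Nucb1, the Golgi calcium-binding protein nucleobindin, read 2047.7, 1790 and 1931.2 in SHA pools 1 to 3, against 2637.9, 2104.9 and 2687.3 in SLA pools 1 to 3 on rc_AA944007_g_at. It was the 1 gene of the list whose pools did not overlap, lower in SHA by -0.36 ± 0.22 (unadjusted p = 0.14 in limma), against 3.65% of all tested. Its second probe set, rc_AA944007_at, differed by 0.02. S100a4, an S100 protein of motile and mesenchymal cells, differed by -0.90 ± 0.58, with 347.4 in SLA pool 1 and at most 117.9 in the other 5 pools. Rcn3, a reticulocalbin of the endoplasmic reticulum, differed by 0.50 ± 0.35 on rc_AA875665_g_at and by -0.015 on rc_AA875665_at. Calm2, one of the genes for calmodulin, read 4722.1, 3097.4 and 4580.4 in SHA pools 1 to 3, against 2783.3, 2868.4 and 4174.6 in SLA pools 1 to 3, and differed by 0.34 ± 0.28.

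Hpcal4, a neuronal calcium sensor of the visinin-like group, was singled out after its values were seen. On D13125_at it read 316.3, 842.7 and 314.1 in SHA pools 1 to 3, against 298.5, 806 and 356.3 in SLA pools 1 to 3. Pools numbered 2 were again high in both lines (adjusted p = 0.012 for pool number in limma), and the line difference was -0.01 ± 0.47. Of its other probe sets, D14819_at and D14819_g_at, neither passed for pool number, with adjusted p values of 0.073 and 0.20, although pools numbered 2 were highest on both. Of the 17 EF-hand genes, read from their brightest probe sets, 2 passed for pool number, Hpcal4 and Rcn2, another reticulocalbin, against 7.6% of all probe sets tested. Ppp3r1, the regulatory subunit of calcineurin, passed on its dimmer probe set D14568_at (adjusted p = 0.044) but not on D14425_s_at (adjusted p = 0.12).

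Neuron-type markers had more genes higher in SHA than lower, with none past the threshold. Of 14 granule and pyramidal markers other than Calb1, 10 were higher and 4 lower (median 0.11). Of 20 interneuron markers other than Calb2 and Pvalb, 14 were higher and 6 lower (median 0.14), and for 3 of them the SHA pools lay wholly above the SLA pools, against 2.01% of all tested. The 14 general neuronal markers had 10 higher and 4 lower (median 0.10). None of these genes had an unadjusted p under 0.05. Medians within pool numbers 1, 2 and 3 were 0.13, 0.12 and 0.22 for the granule and pyramidal markers, 0.23, 0.00 and 0.19 for the interneuron markers and 0.37, 0.12 and 0.09 for the general neuronal markers.

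In the glial and non-neural lists more genes were lower in SHA than higher, again with none past the threshold. Of 15 astrocyte markers other than S100b, 6 were higher and 9 lower (median -0.07). Vim, an intermediate filament that astrocytes share with vessels and meninges, had an unadjusted p of 0.012 (limma) and was lower in SHA in all pools, where 1.13% of all tested were lower at an unadjusted p under 0.05. Of 12 oligodendrocyte and myelin markers 3 were higher and 9 lower (median -0.15). Of 21 choroid plexus, vascular and meningeal markers 6 were higher and 15 lower (median -0.12). Of 16 microglia and immune markers 1 was higher and 15 lower (median -0.47), with Cd74, RT1-Ba, C3 and C1qb at an unadjusted p under 0.05, and this list summed to between 3368 and 4158 in SHA and between 5521 and 5726 in SLA. Medians within pool numbers 1, 2 and 3 had mixed signs for astrocyte markers other than S100b (-0.06, 0.01 and -0.28), oligodendrocyte markers (-0.23, 0.04 and -0.35) and choroid plexus, vascular and meningeal markers (-0.42, -0.06 and 0.11), while those of the immune markers were -0.55, -0.49 and -0.37. No gene of these lists passed after adjustment, and the part of other cell types in the member values was not tested.

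**Figure D4:**
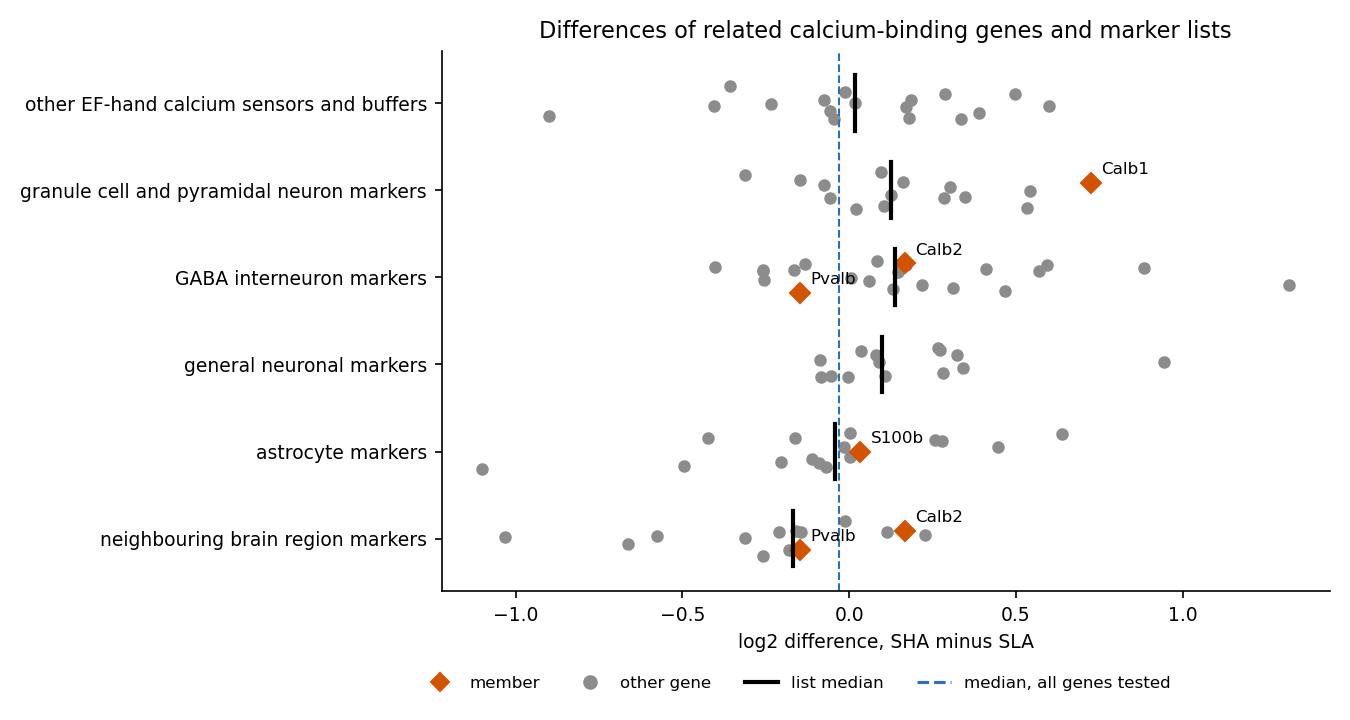
Log2 difference SHA minus SLA (x axis) of each measured gene in 6 lists (rows), with orange diamonds for members, grey points for other genes, black bars for list medians and a dashed line for the median of all 3812 genes tested. Calb1 at 0.73 lies at the upper end of the granule and pyramidal markers, while Calb2, Pvalb and S100b lie within their lists.

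The genes most like each member across the 6 pools were found by Pearson's r of log2 values over the 5380 or 5381 other probe sets with 1 gene symbol. These values describe 6 pools that share pool numbers and carry no test. They hold for single probe sets and not for genes: the genes named have 23 other probe sets, whose r with the same members ran from -0.83 to 0.97, with 1 above 0.9. For Calb1 they were Kcnj4, an inward rectifier potassium channel (r = 0.997), Atp1b1, a sodium pump subunit (r = 0.996), and Rtcb, an RNA ligase (r = 0.994), and 5.13% of those probe sets had r above 0.9. For Calb2 they were Car5a, Top2a and Ttc3 (r = 0.99, 0.98 and 0.98), and for Pvalb they were Ptpn11, Casp2 and Kcnh6 (r = 0.97, 0.96 and 0.96). Probe sets with r above 0.9 made up 0.98% for Calb2, 0.59% for Pvalb, 1.15% for Hpcal1, 0.39% for Hpca and 0.45% for S100b on S53527mRNA_s_at.

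For Hpca the most alike were Tsc22d1, Atp5po and Atp2b2 (r = 0.99, 0.97 and 0.96). Atp2b2 encodes a calcium pump of the plasma membrane, and its other probe sets had r of 0.31, -0.44 and -0.53 with Hpca. For Hpcal1 they were the interneuron peptide somatostatin, Sst, on K02248cds_s_at (r = 0.99, against 0.16 on its brighter probe set M25890_at), the glucose transporter Slc2a4 (r = 0.99) and Ppil2 (r = 0.98). For Vsnl1 they were Hivep2, Plcb1 and Bclaf1 (r = 0.999, 0.998 and 0.996), with 6.91% of probe sets above 0.9, the highest share among the members. For S100b on S53527mRNA_s_at they were Btg3, Adra1a and Ndufa4l2 (r = 0.98, 0.98 and 0.97). Among the members themselves, Vsnl1 correlated with Calb1 at 0.76 and with S100b on rc_AI146214_at at -0.95, while the 2 probe sets of S100b correlated at 0.18 and Hpca with Hpcal1 at 0.11.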

How the data were processed

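Total RNA of 6 hippocampal pools had been hybridised to 6 one-colour oligonucleotide arrays. For each array the authors deposited a linear intensity per probe set. Trimmed means (2% off each end) lay between 250.3 and 250.4 on all arrays, so the deposited intensities were already scaled to a common mean, and a change common to all transcripts is out of view. The software is not given in the sources used here.

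The 59 control probe sets were set aside, values below 8.9 (the 10th percentile) were set to that floor, log2 was taken, and the dimmest 25% of probe sets by mean log2 was left out. The floor took 4.95% to 15.9% of the values, depending on the array. Lines were compared over the 6555 remaining probe sets by limma (version 3.58.1, under R 4.3.3), using lmFit, then eBayes with its trend option, two-sided, with Benjamini-Hochberg adjustment. Symbols came from the platform annotation, updated by gene number through a RefSeq table (6985 of 7006 probe sets with 1 symbol matched; 308 had several and 1426 none). The brightest probe set stood for a gene in lists. The steps were tested on simulated data.

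Named genes were all member probe sets, list genes with an unadjusted p under 0.05 (at most 4 a list), the 4 of smallest p among the EF-hand genes, and the 3 genes most like each member. Members and lists were chosen with earlier results of these data known. Same-numbered pools deviated together (r = 0.44 for number 1, 0.68 for number 2 and 0.13 for number 3). For SHA pool 3 the correlation with SLA pool 1 was higher (0.16), so number 3 does not stand out. Pairing by number rests on the data alone, since no label states it. Alternatives changed the normalization, filter, floor, variance model, array weights, block and pools.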

Additional observations from a re-analysis of the deposited data

How the results depend on the processing

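No alternative put a member past the threshold between lines: 18 or 19 settings gave 146 values for the 8 probe sets, of which 128 kept their sign and 18 changed it. Quantile normalization gave -0.021 for S100b on S53527mRNA_s_at. Array weights gave -0.0079 for Calb2, 0.21 for Pvalb, -0.094 for Vsnl1 and -0.097 for S100b on S53527mRNA_s_at, and the replicate block with array weights gave -0.010 for Calb2. Without both pools numbered 1, Calb2 was -0.039, Pvalb 0.11, Hpca -0.029 and Vsnl1 -0.029. With 1 pool left out, differences ran from 0.20 to 0.99 for Calb1, 0.037 to 0.30 for Calb2, -0.38 to 0.044 for Pvalb, -0.035 to 0.41 for Hpca, 0.014 to 0.58 for Hpcal1, -0.52 to 0.82 for Vsnl1, -0.72 to 2.28 for S100b on rc_AI146214_at and -0.098 to 0.15 for S100b on S53527mRNA_s_at. The Calb1 difference was 0.29 with array weights and 0.47 with weights and the replicate block.

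The replicate block changed no member's call, with the lowest adjusted p at 0.83. Over all tested, 0 probe sets passed except 12 with the replicate block and array weights together, where the lowest member adjusted p was 0.11, for S100b on rc_AI146214_at. The 98 of 6555 probe sets at an unadjusted p under 0.05 were 203 of 8740 when no filter was set. They were 63 when the dimmest 50% was removed, where fewer probe sets were tested. They numbered 354 under array weights, 345 under the replicate block and 871 under both. Dropping 1 pool gave 57 to 152, with 62 after dropping SHA pool 1, 152 after SHA pool 2 or SLA pool 2, and 57 after SLA pool 3. The test of pool number, added later, called 498 probe sets, against 172 after quantile normalization and 155 after median centring. It called 488 without the pools numbered 1, 735 without those numbered 3 and 96 without those numbered 2. In that last setting 1 member in place of 2 passed. Vsnl1 and S100b on rc_AI146214_at still passed this F test after quantile normalization (adjusted p = 0.019 and 0.017) and median centring (adjusted p = 0.024 and 0.0069). The causes were not tested. The number of arrays limits the precision.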
